A study of Mus musculus with 474 samples.

Results

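The 8 slow-fibre contractile genes described here are Myl2, Myl3, Tnnt1, Tnni1, Tnnc1, Atp2a2, Casq2 and Tpm3. They were chosen by gene symbol, all 8 are among the 20612 genes of the deposited tables, and all 8 were among the 18823 that passed a filter on low counts. RNA-seq was run on skeletal muscle of Diversity Outbred mice (gastrocnemius according to the methods of the study), with 1 library per animal. Diversity Outbred mice descend from 8 inbred founder strains, so no animal shares its genotype with another. All animals received a high-fat, high-sugar diet, labelled as 45 percent fat, from a young age until harvest as adults, so no group had another diet, and the labels give no age. The titles give a sex and a number read here as the outbred generation. This is an assumption, since the methods name 18, 19 and 21 as generations but neither 17 nor 23. Generations 17, 18, 19, 21 and 23 held 48, 45, 49, 46 and 47 females and 46, 48, 50, 47 and 48 males. No transgene, deletion or drug treatment separates the groups.

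A muscle fibre contracts when calcium leaves the sarcoplasmic reticulum and binds troponin, which shifts tropomyosin along the actin filament so that myosin can pull on it. Slow fibres build this machinery from their own set of isoforms, encoded by different genes from those of fast fibres, and are known for endurance and oxidative metabolism. The gastrocnemius of the mouse consists mostly of fast fibres. Several genes of the slow set also serve the ventricle of the heart.

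The 8 genes were lower in males than in females, by 1.23-fold (Myl3) to 1.496-fold (Tnni1), and in each gene every female group had a higher median than every male group. Of all genes tested, 30.6% were called lower in males and 13.9% had this order of medians. They rose and fell together from animal to animal in both sexes, with Casq2 the member that followed the others least. The generations were not found to differ in any of the 8, where 7.56% of all genes were called.

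CPM is the count per mega-count (M) of the library's total after TMM scaling. A log2 difference between the sexes is male minus female from the quasi-likelihood test of edgeR, with generation as covariate and p-values adjusted over all genes tested by the Benjamini-Hochberg method. The deposited score is the authors' variance-stabilising transform (VST), whose unit is close to log2. Libraries held between 35.9 and 165.7 M counts, and their mean depth was 81.5 M with an SD of 16.2 M over all animals. No library was a near copy of another in its group, since even the closest pair gave a chi-square of 57.2 for each gene on average. In 5 libraries (DO048, DO153 and DO347, labelled female, and DO193 and DO308, labelled male) Xist or Ddx3y, which mark the inactive X and the Y chromosome, lay outside the range of all other libraries of the same label. The library labelled male DO308 had no count of either and stood at the 98th percentile of the males of its generation for Tnnt1, Tnni1, Myl3 and Atp2a2. All libraries were kept under their labels, and values without these 5 are given beside the comparison of the sexes, the group medians, the library blocks, the pairs of members and the extreme animals.

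The promoters of 4 members are shown because the slow troponins are the trio that rose and fell together most closely, while Casq2 followed the other members least. The lines hold 250 bases before and 50 after the start site that RefSeq gives on GRCm38.p6, read on the gene's own strand. They are chr7:4515926-4516225 (minus strand) for Tnnt1, chr1:135799171-135799470 (plus) for the first of the 2 entries of Tnni1, chr14:31208062-31208361 (plus) for Tnnc1 and chr3:102086165-102086464 (plus) for Casq2. Capitals mark matches, on either strand, to the E-box CANNTG, to the MCAT element CATTCC or to the MEF2 consensus, the motifs bound by myogenic regulators, TEAD factors and MEF2 factors.
Tnnt1: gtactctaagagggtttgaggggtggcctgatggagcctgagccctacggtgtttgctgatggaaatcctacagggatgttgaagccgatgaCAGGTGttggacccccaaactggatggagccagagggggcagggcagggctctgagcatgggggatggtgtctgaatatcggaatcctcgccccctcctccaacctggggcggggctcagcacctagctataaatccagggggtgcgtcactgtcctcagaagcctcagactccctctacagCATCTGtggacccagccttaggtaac
Tnni1: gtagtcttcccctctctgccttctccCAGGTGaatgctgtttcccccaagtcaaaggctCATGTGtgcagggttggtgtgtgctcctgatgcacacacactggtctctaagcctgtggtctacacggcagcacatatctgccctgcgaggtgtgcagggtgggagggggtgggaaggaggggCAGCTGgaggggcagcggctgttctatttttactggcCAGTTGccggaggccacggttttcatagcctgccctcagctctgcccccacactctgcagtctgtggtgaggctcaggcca
Tnnc1: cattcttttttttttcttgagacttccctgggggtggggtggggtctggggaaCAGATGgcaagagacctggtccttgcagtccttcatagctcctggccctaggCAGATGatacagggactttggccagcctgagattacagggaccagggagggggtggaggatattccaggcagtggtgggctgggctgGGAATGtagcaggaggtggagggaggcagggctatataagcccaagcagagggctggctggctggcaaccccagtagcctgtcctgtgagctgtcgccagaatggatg
Casq2: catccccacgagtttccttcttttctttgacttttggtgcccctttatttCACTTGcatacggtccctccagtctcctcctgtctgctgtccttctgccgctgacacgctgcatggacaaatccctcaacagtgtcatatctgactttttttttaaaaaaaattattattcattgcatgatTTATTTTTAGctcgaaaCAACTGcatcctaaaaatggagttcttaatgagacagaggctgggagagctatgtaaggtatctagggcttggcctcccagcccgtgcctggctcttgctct
Of the 10 RefSeq entries of 7 members (Atp2a2 was not matched), 1 held the MEF2 match, that of Casq2. Such a match lay in 3.19% of all 32851 promoters. The MCAT element lay in the promoters of Tnnc1 and Myl3, the latter with 2 copies, against 14.7% of all promoters. E-boxes, which overlap neither of the other motifs in the lines shown, lay in the RefSeq entries of all 7 members and in 72.3% of all promoters. Among these 7 is Myl2, whose entries lie far from its annotated starts, as given below. A match describes these letters only. Both RefSeq entries of Myl2 began at least 7762 bases from any start of the gene in the annotation of the files' genes, so they are not shown.

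Per kilobase of merged exons the members spanned a wide range of levels. Myl2, the regulatory myosin light chain of slow fibres and the ventricle (chromosome 5, 122100951 to 122113472, GRCm38), had a mean of 136.6 CPM per kb. Myl3, the slow essential light chain (chromosome 9, 110741861 to 110769798), had 99.3 CPM per kb. Of the slow troponins, Tnnc1, the calcium sensor (chromosome 14, 31208312 to 31211729), had 128.9, Tnnt1, which ties the complex to tropomyosin (chromosome 7, 4504570 to 4516382), had 119.8, and Tnni1, the inhibitory subunit (chromosome 1, 135779434 to 135810989), had 27.8 CPM per kb. Atp2a2, the SERCA2 calcium pump (chromosome 5, 122453513 to 122502225), had 121.6 and Tpm3, the slow tropomyosin (chromosome 3, 90072649 to 90100902), had 44.5 CPM per kb. Casq2, the calcium-binding calsequestrin of the heart and slow fibre (chromosome 3, 102086415 to 102146514), was the lowest at 9.53 CPM per kb. Tnnc1 and Tnni1, subunits that meet in 1 complex, thus differed in this value while they varied together across animals. Their merged exons measure 1.041 and 3.6 kb, and their means were 134.2 and 100.1 CPM. Merged exons can hold parts that the muscle RNA does not use, so values per kb compare RNA levels only loosely.

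Other genes overlap 5 members (Ccdc63 at Myl2, Pth1r at Myl3, Nisch at Tnnc1, 3 predicted genes at Atp2a2, 4632404M16Rik at Casq2), and whether the counting used strand is not given in the sources used here. Reads of Tpm3 may be shared with its related copy Tpm3-rs7, so its level is uncertain. Tpm3 is also used outside slow fibres.

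Fast-fibre RNA dominated these libraries, as the known fibre make-up of the muscle has it. The 8 fast-fibre counterparts of the members (Mylpf, Myl1, Tnnt3, Tnni2, Tnnc2, Atp2a1, Casq1 and Tpm1) held 8.19% of the counts on average, and the 8 members held 0.201%, between 0.0437% and 0.584% in single libraries. In the median animal the slow member made up between 0.916% (Casq2 with Casq1) and 3.23% (Myl3 with Myl1) of its pair, per kilobase. Since several members are also heart genes, heart markers were read, of which 7 of 12 are in the table. The heart-defining Tnni3 had a median of 0.0721 CPM and was at 0 in 61 libraries, while Myh6, the alpha myosin heavy chain of the heart, had 13.1 CPM.

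The comparison of the sexes shows whether the slow set differs between male and female muscle. Myl2 lay between 50.4 and 894.0 CPM in females, with a median of 294.3, and between 63.4 and 700.6 CPM in males, with a median of 209.7. Most males therefore lay below the female median (82.8%), and the single animals overlapped widely. Females had a mean of 308.5 ± 100.4 CPM (SD) and males one of 225.1 ± 79.3 CPM. The log2 difference was -0.45 ± 0.04, here and below with its SE, at an adjusted p of 4.12e-22. All 8 members were lower in males at the adjusted threshold of 0.05, where 30.6% of all genes tested were lower. The median log2 difference of the 8 was -0.44, beside -0.01 over all genes.

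Myl3, the other light chain, had the smallest difference. It ranged from 51.7 to 543.2 CPM in females (median 221.2) and from 76.1 to 452.4 CPM in males (median 173.7). Its log2 difference was -0.30 ± 0.04 (adjusted p = 8.57e-12).

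The slow troponins had the 3 largest differences. Tnni1 ran from 19.9 to 344.5 CPM in females, with a median of 116.9, and from 25.5 to 313.3 CPM in males, with a median of 74.97. Males had 33.1% less of it (log2 difference -0.58 ± 0.05, adjusted p = 7.22e-30), and 88.7% of males lay below the female median. Tnnc1 ran from 20.4 to 408.4 CPM in females (median 152.1) and from 29.0 to 315.4 CPM in males (median 104.3), a log2 difference of -0.54 ± 0.04 (adjusted p = 1.33e-28). The overlap was again wide. Tnnt1 ran from 50.9 to 871.1 CPM in females (median 301.1) and from 59.7 to 694.6 CPM in males (median 205.7), with a log2 difference of -0.51 ± 0.04 (adjusted p = 1.21e-26).

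On the thin filament, Tpm3 ran from 45.9 to 722.1 CPM in females (median 295.1) and from 62.5 to 621.8 CPM in males (median 221.1), a log2 difference of -0.41 ± 0.04 (adjusted p = 8.07e-21). Of the calcium-handling members, Atp2a2 ran from 173.6 to 1884 CPM in females (median 818.9) and from 272.7 to 1733 CPM in males (median 625.3). Its log2 difference was -0.37 ± 0.04 (adjusted p = 1.62e-19). Casq2 ran from 11.7 to 66.9 CPM in females (median 28.6) and from 8.72 to 76.2 CPM in males (median 20.8), so that its highest animal was a male. Its log2 difference was -0.43 ± 0.05 (adjusted p = 1.97e-18). Without the 5 libraries named above the 8 differences lay between -0.58 and -0.30, and all 8 passed the test.

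**Figure D1:**
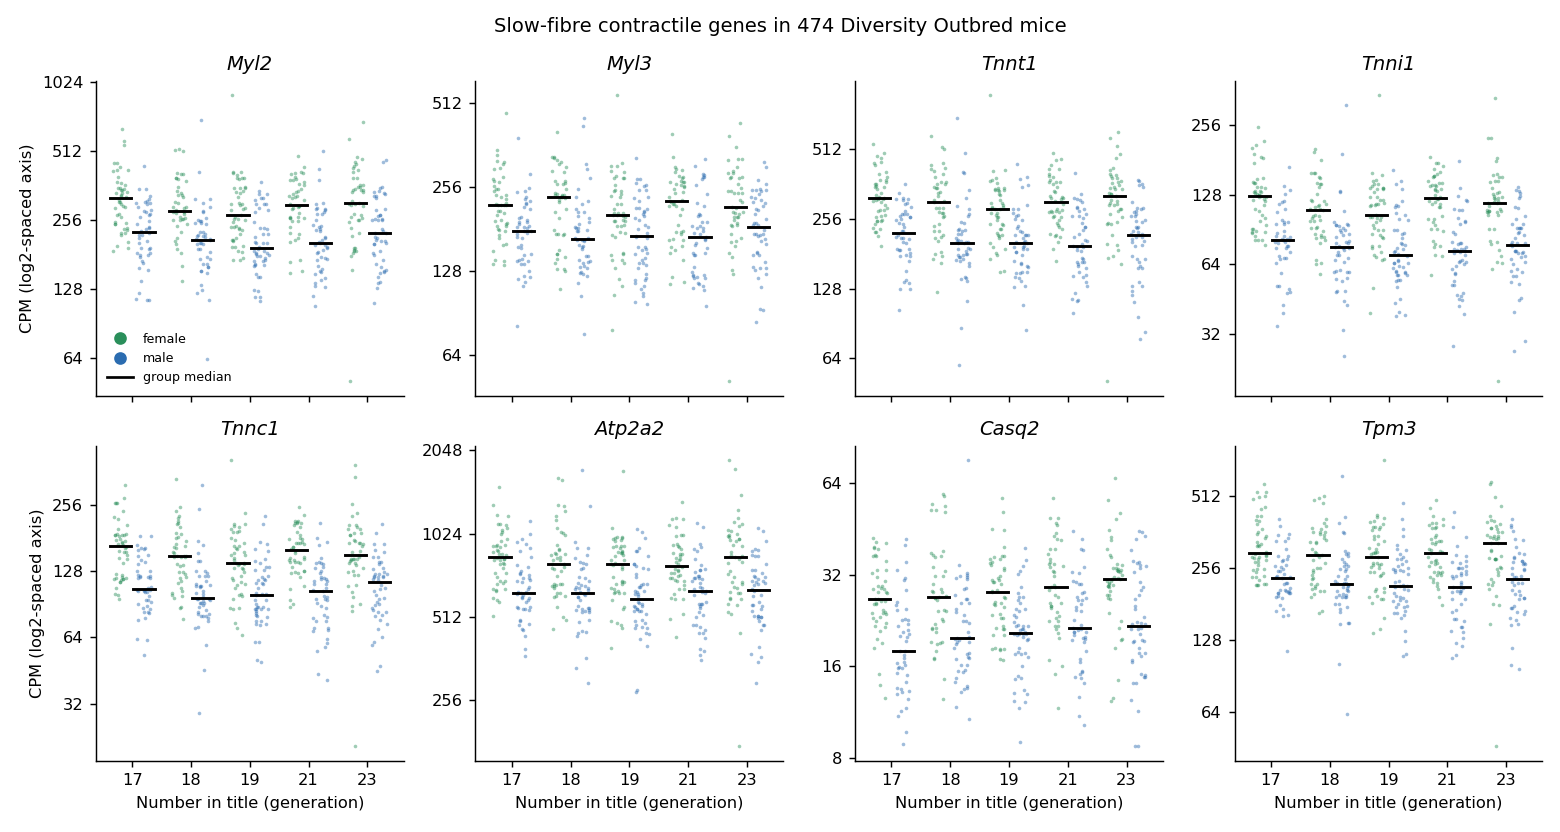
CPM of each member (vertical axis, log2-spaced) in every animal, by the number in the title read as generation, with females in green, males in blue and black lines at the group medians. In each panel the 5 female medians lie above the 5 male medians, while the animals of both sexes overlap.

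Across the 10 groups the order of levels was set by sex. In each of the 8 members all 5 female group medians lay above all 5 male ones, which held for 13.9% of all genes tested, and it was so in all 8 without the 5 libraries too. Median Tnni1 was highest in females of generation 17 (126.5 CPM) and lowest in males of generation 19 (70.1 CPM). The lowest female median was 104.5 CPM and the highest male median 81.3 CPM. Median Atp2a2 ran from 844.4 CPM in females of generation 17 to 592.8 CPM in males of generation 19, and median Casq2 from 31.0 CPM in females of generation 23 to 17.96 CPM in males of generation 17. Between neighbours in the order, the step in mean level from the lowest female to the highest male group was the one that exceeded 2 SE in 7 members. In Myl3 no neighbouring means differed by that much. Measured against the spread between animals, 1 step in the 8 orders exceeded 1 SD, in Tnnt1.

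The difference was seen in each subset of the animals. Fitted in each generation alone, all 8 members were lower in males in all 5 generations, with the highest adjusted p at 0.0401 (Myl3), where 11.1%, 13.2%, 10.2%, 12.7% and 13.2% of all genes were called lower in generations 17, 18, 19, 21 and 23. The log2 difference of Tnni1 lay between -0.67 and -0.48 over the generations and that of Myl3 between -0.32 and -0.25. The library numbers of the titles were divided here into 5 blocks of 91 to 96 libraries, with a new block after a gap of more than 3 numbers or after 96 numbers. The numbers have 1 such gap, between blocks 1 and 2, so the other edges were set by the length of 96, and the labels name no plate or batch. In each block alone 7 members passed in all 5 blocks, where 10.5%, 10.8%, 12.2%, 15.7% and 12.6% of all genes were called lower in blocks 1 to 5. Myl3 passed in 4 blocks and in block 3 had a log2 difference of -0.21 ± 0.10 (adjusted p = 0.113). No sex-by-generation interaction was called in the 8 members by edgeR, also at an unadjusted p under 0.05, or by limma on the deposited score (0.531% of all genes were called by edgeR).

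**Figure D2:**
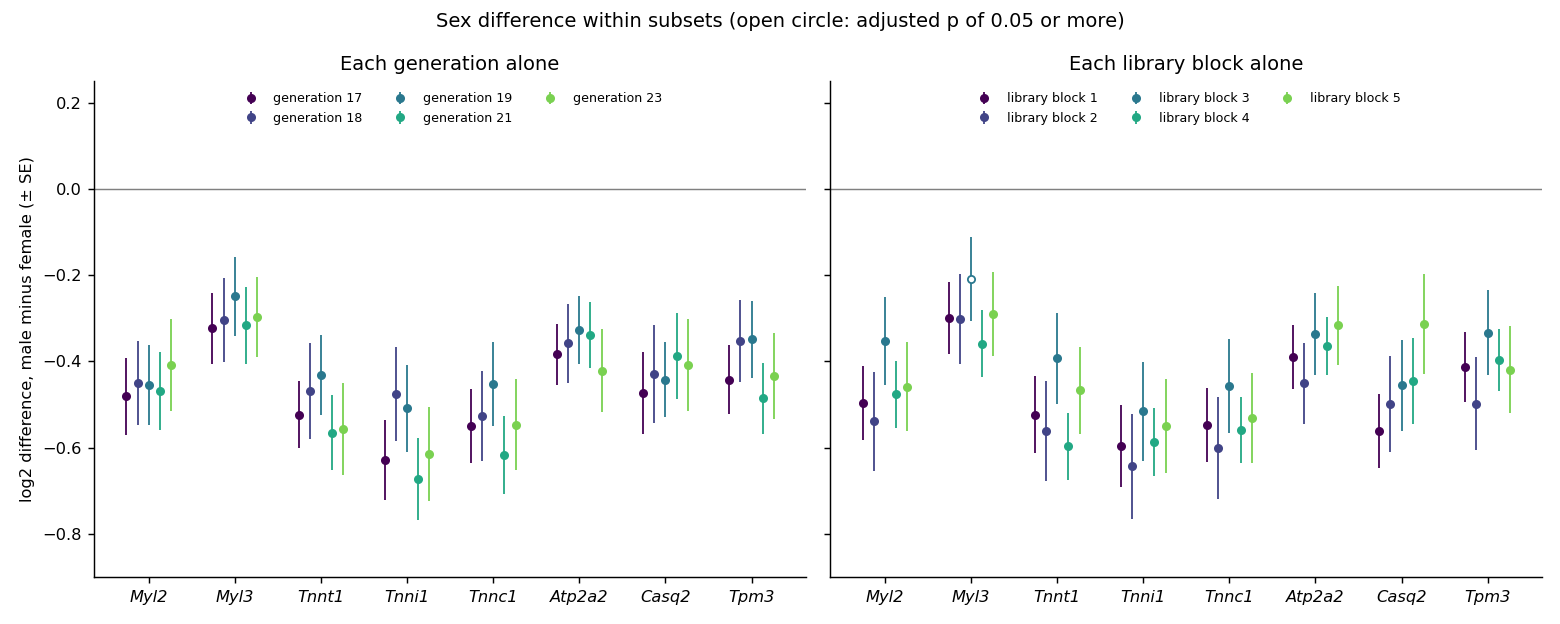
Log2 difference, male minus female, with its SE (vertical axis) for each member, fitted in each generation alone (left) and in each library block alone (right). All points lie below 0, and 1 of them, Myl3 in block 3, is open because its adjusted p is 0.113.

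Markers of other cells also differed between the sexes. Of 6 adipocyte markers 5 were lower in males and 1, Lep, was higher (beside 30.6% and 24.4% of all genes, here and for the lists that follow), and their summed level had a median of 242.05 CPM in females (89.3 to 1257) and 215.0 CPM in males (101.1 to 704.5). Both markers of regenerating fibres, Myh3 and Myh8, were lower in males, with summed medians of 18.9 CPM in females (5.38 to 103.5) and 11.5 CPM in males (3.42 to 66.3). Of the 6 heart markers tested, Myh6 was lower in males and 5 were not called, and the summed level had a median of 21.7 CPM in females (7.49 to 82.95) and 19.7 CPM in males (7.80 to 63.9). With scores of the adipocyte, erythroid, Schwann and macrophage lists as covariates, all 8 members were still lower in males. After sex and generation were removed, these lists had r between -0.0124 (macrophage) and 0.0872 (erythroid) with the mean z-score of the members. Such a fit could therefore hardly change the difference. The part of the regenerating-fibre and heart markers in the result was not tested. In bulk muscle, fewer slow fibres and less RNA of these genes per slow fibre cannot be told apart. Neither the titles nor the methods say which part of the muscle was taken from each animal, and its share in the result was not tested.

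The fast-fibre counterparts allow the slow genes to be read against the fast gene of the same role inside each library. Among the 8 counterparts, 5 were higher and 3 lower in males, where 24.4% and 30.6% of all genes were, and the 8 differences lay between -0.10 and 0.13 on the log2 scale. Myl1, Tnnt3, Tnni2, Tnnc2 and Tpm1 were higher, and Mylpf, Atp2a1 and Casq1 were lower. The log2 ratio of Tnni1 to Tnni2 was -4.93 ± 0.52 (SD) in females and -5.66 ± 0.58 in males, a difference of -0.73 ± 0.05 (SE). For Atp2a2 to Atp2a1, the SERCA pumps of slow and fast fibres, the ratio was -5.51 ± 0.48 in females and -5.78 ± 0.47 in males, a difference of -0.27 ± 0.04. All 8 ratios were lower in males, each with p = 1e-05 in a 2-sided permutation test within generations, the smallest that 100000 shuffles can give, in 8 tests. The other differences were -0.40 (Myl2), -0.43 (Myl3), -0.61 (Tnnt1), -0.59 (Tnnc1), -0.39 (Casq2) and -0.54 (Tpm3). Each ratio was lower in males in every generation and every library block.

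**Figure D3:**
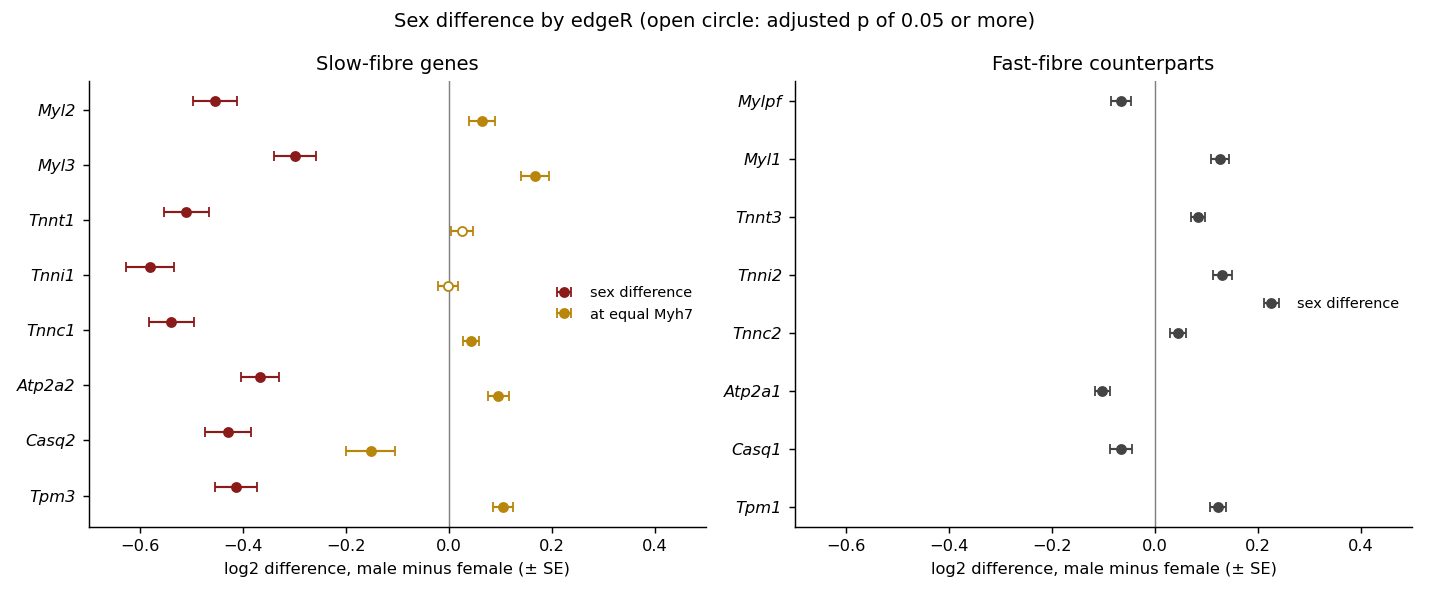
Log2 difference, male minus female, with its SE (horizontal axis) for the 8 slow-fibre genes (left, red), the same at equal Myh7 (left, gold) and the 8 fast-fibre counterparts (right). The red points lie between -0.58 and -0.30, and the fast-fibre points between -0.10 and 0.13.

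Within the slow set the size of the sex difference was unequal. Set against the mean of the other 7 in the same animal, Tnni1 was a further 0.16 lower in males on the log2 scale, Tnnc1 0.10 and Tnnt1 0.08 lower (log2 differences -0.16, -0.10 and -0.08, each p = 1e-05 in the same permutation test). Myl3 was 0.18 and Atp2a2 0.10 higher than the others (each p = 1e-05), and Tpm3 0.05 higher (p = 0.0121). Myl2 (p = 0.807) and Casq2 (p = 0.689) were not found to depart from the other 7. These are 8 unadjusted tests. They depend on each other, since each member is part of the mean that the others are set against. The SE was 0.045 for Casq2 and 0.018 for Myl2.

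Myh7, the myosin heavy chain that defines slow fibres, is no member and served as a reference for the slow myosin level of each animal. It was 1508 ± 516.9 CPM in females and 981.2 ± 349.995 CPM in males, a log2 difference of -0.62 ± 0.04. With log2 CPM of Myh7 as a covariate, 6 of the 8 members were called between the sexes, and 5 of these 6 had changed direction. Of all genes, 49.5% were called (22.0% higher and 27.5% lower in males). Males were then higher in 5, namely Myl3 (0.17 ± 0.03, adjusted p = 1.5e-08), Tpm3 (0.11 ± 0.02, adjusted p = 1.02e-06), Atp2a2 (0.10 ± 0.02), Myl2 (0.06 ± 0.03) and Tnnc1 (0.04 ± 0.02). Casq2 was the member that remained lower in males, by a log2 difference of -0.15 ± 0.05 (adjusted p = 0.00411). Tnnt1 (0.03 ± 0.02, adjusted p = 0.338) and Tnni1 (0.00 ± 0.02, adjusted p = 0.941) were not called. With the total count alone as scale, Myl2 (adjusted p = 0.205) and Tnnc1 (adjusted p = 0.435) were no longer called.

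The generations were compared in the same fit with sex as covariate. None of the 8 members was called by edgeR, limma or DESeq2, where 7.56% of all genes were by edgeR. At an unadjusted p under 0.05 there was 1, Casq2 (p = 0.0104, adjusted p = 0.0976), whose mean ran from 23.99 CPM in generation 17 to 27.9 CPM in generation 23. Over the generations the fitted levels of the members spanned between 0.10 (Myl3) and 0.23 (Casq2) on the log2 scale, each smaller than the size of that member's sex difference. Between library blocks 5 members were called (Myl2, Myl3, Tnni1, Tnnc1 and Atp2a2), beside 47.4% of all genes. The mean of all 5 was lowest in block 1, as for Tnni1 with 88.2 CPM against 107.3 CPM in block 2. With limma on the deposited score no member was called between blocks, with edgeR on the total count alone 3 were, and with DESeq2 size factors 4. Without the 5 libraries named above 4 were called, and Atp2a2 went from an adjusted p of 0.0476 to 0.0541. The methods of the study name a removal of batch effects, and whether the deposited score carries it is not stated. The shares of all genes called under these other settings are not given here.

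Sex took between 10.2% (Myl3) and 26.3% (Tnni1) of the variance of log2 CPM across animals. Generation took at most 1.92% and library block at most 3.33%, so that at least 70.5% lay between animals of the same sex, generation and block. The spread between animals was not found to differ between the sexes in any member by limma on absolute deviations, also at an unadjusted p under 0.05 and on log2 CPM (5.55% of all genes were called). The SD of the score inside groups was 0.46 in females and 0.51 in males for Tnni1, and 0.40 in both for Atp2a2.

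Most of that spread was common to the members. After sex and generation were removed from the score, the median Pearson r of the 28 pairs across all animals was 0.835. The closest pair was Tnni1 with Tnnc1 (r = 0.937, Spearman rho = 0.918), followed by Tnnc1 with Tpm3 (r = 0.926, rho = 0.903) and Tnnt1 with Tnnc1 (r = 0.913, rho = 0.891). The 21 pairs without Casq2 ran from 0.777 (Myl3 with Atp2a2) to 0.937. The 7 pairs with Casq2 ran from 0.372 (with Tpm3, rho = 0.314) to 0.531 (with Myl2, rho = 0.469). Every pair had p = 1e-05 for r and for rho in permutation tests, the smallest that 100000 resamples can give, and the same after adjustment over the 28 pairs. The pairs share libraries, so they are not independent of each other.

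**Figure D4:**
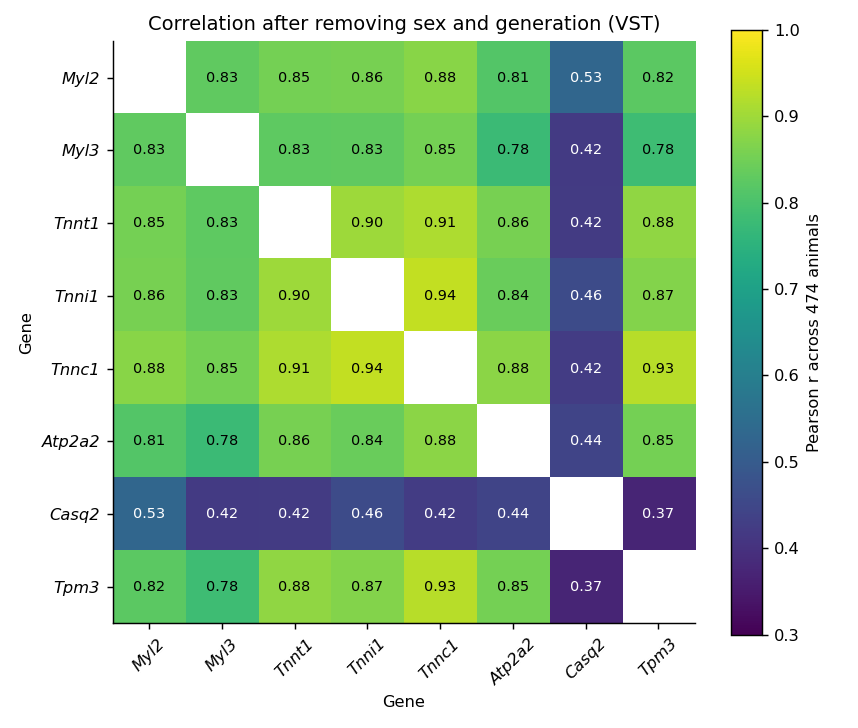
Pearson r across all animals for each pair of members, after sex and generation were removed from the deposited score, with the colour scale from 0.3 to 1. The row and column of Casq2 stand apart with values from 0.37 to 0.53, and all other pairs lie at 0.78 or above.

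Leaving out the 2 animals farthest from the median of the first gene gave r = 0.932 for Tnni1 with Tnnc1 and r = 0.352 for Casq2 with Tpm3. In females alone the median of the 28 pairs was 0.848 and in males alone 0.831. Inside single library blocks it ran from 0.762 (block 1) to 0.882 (block 3). Over the 10 groups, Tnni1 with Tnnc1 lay between 0.885 and 0.963 and Casq2 with Tpm3 between 0.184 and 0.530. Without the 5 libraries named above the median was 0.834.

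Set against the mean of the other 7 members, Tnnc1 shared 90.0% of its variance with them, Tnni1 85.8%, Tnnt1 84.5%, Myl2 82.2%, Tpm3 79.8%, Atp2a2 78.1% and Myl3 73.5%. Casq2 shared 22.0%. Its level was the lowest of the 8, at 26.1 ± 10.03 CPM (SD over all animals).

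The same animals stood at the ends of several members. The 10 highest animals of each member were 27 animals in all, of which 23 were labelled female, and 3 were among the 10 highest in all 8 genes. Among these 23 were DO048 and DO153, which stand outside the other females in Ddx3y and Xist, and without the 5 libraries there were 25 animals, 21 of them labelled female. The female DO244 of generation 19 was the highest of all animals in 6 members, with 894.0 CPM of Myl2, 344.5 CPM of Tnni1 and 4434 CPM of Myh7. The male DO189 of generation 18 was among the 10 highest in all 8, with 76.2 CPM of Casq2, the highest value of that gene. The 10 lowest animals of each member were also 27 animals, of which 2 were labelled female, also without the 5 libraries. The female DO472 of generation 23 was the lowest animal in 7 members, with 50.4 CPM of Myl2, 20.4 CPM of Tnnc1 and 206.4 CPM of Myh7, while its Casq2 was 14.5 CPM. Tnnc1 thus differed by 19.999-fold between the extreme animals and Casq2 by 8.74-fold.

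To find which other genes followed the set, the score of each gene was correlated with the mean z-score of the 8 members across all animals. These values are descriptions, and the genes share the same libraries. Of 18815 other genes, 15 had r of at least 0.5 (0.0797%), and the median r was -0.01. Myh7 was the most alike (r = 0.954), followed by Myh7b, a slow-type myosin heavy chain gene that hosts a muscle microRNA (r = 0.761). Next came Xpo4, a nuclear transport receptor (r = 0.718), and Strit1, which encodes the SERCA-activating micropeptide DWORF (r = 0.715, mean 2.25 CPM). Myoz2, the calsarcin of slow fibres and heart, had r = 0.661. Lgi1, a secreted neuronal protein, had r = 0.648, Myl12a, a regulatory light chain of non-muscle myosin, 0.629, Prox1, a transcription factor known from slow fibres and heart, 0.567, Idh2, the mitochondrial isocitrate dehydrogenase, 0.563, and Mhrt 0.550. Mhrt overlaps Myh7 on the other strand, and its counts (0.287 CPM) cannot be told apart from reads of Myh7. Xpo4 lies on the chromosome of Myh7, at 57577521 to 57665430 against 54970684 to 54994626 on chromosome 14.

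Of these 10 genes, 7 were also lower in males, beside 30.6% of all genes. Lgi1 (adjusted p = 0.145), Prox1 (adjusted p = 0.302) and Idh2 (adjusted p = 0.954) were not called between the sexes. The 5 genes with the lowest r were Tmem233 (-0.267), Pvalb, the calcium buffer of fast fibres (-0.264), E130308A19Rik (-0.257), Pgm1, a phosphoglucomutase of glycogen metabolism (-0.245), and Cib2 (-0.243). No gene reached an r of -0.3. The mean z-score of the 8 fast-fibre counterparts had r = -0.223, from -0.495 in block 3 to -0.0375 in block 1.

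**Figure D5:**
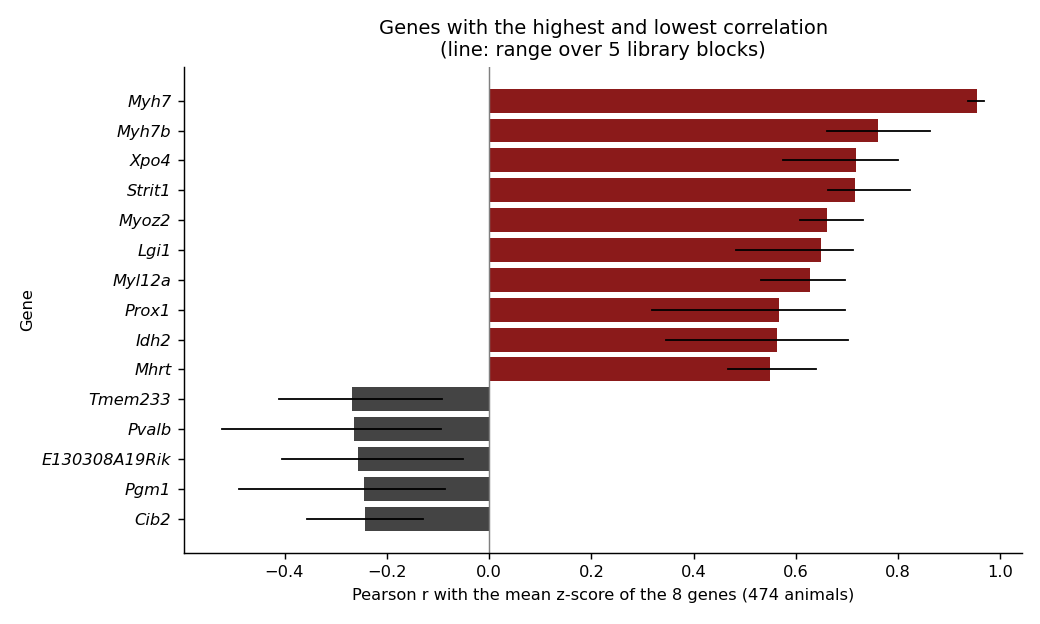
Pearson r with the mean z-score of the 8 members across all animals (horizontal axis) for the 10 genes with the highest and the 5 with the lowest value, with lines for the range over the 5 library blocks. Myh7 stands at 0.954, the others fall from 0.761 to 0.550, and the lowest is -0.267.

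Taken gene by gene, Myh7 was the other gene most alike in 7 members, from r = 0.827 (Myl3) to r = 0.954 (Tnnc1). For Casq2 it was Myoz2, at r = 0.506. What each member did beyond the mean of the other 7 was also correlated with every gene, a step added after the values were seen. For Casq2 the 3 highest absolute values were Trim45 (r = 0.494), Ppm1j (r = -0.468) and Nras (r = 0.417), which all lie within 3 Mb of Casq2 on chromosome 3. For Tnnt1 they were Gm14548 (r = -0.456), 3300002P13Rik (r = -0.424) and Cacng7 (r = 0.386), all within 3 Mb of Tnnt1 on chromosome 7. The 3 such genes of each of the 8 members made 24 pairs of gene and member, with 21 different genes, and in 8 pairs the gene lay within 3 Mb of its member. Myh2, Ppm1j and Trim45 each occurred with 2 members and with opposite signs, Ppm1j also with Tnnc1 (r = 0.276) and Trim45 also with Tpm3 (r = -0.340). Each member is part of the mean that the others are set against, so opposite signs can arise from this way of calculation alone. The genes in such a window make up between 0.330% and 0.760% of all genes tested, depending on the member. For Tpm3 the first was Tpm3-rs7 on chromosome 14 (r = -0.486), the related copy with which reads may be shared. For Myl2 (r = 0.339) and Tnnc1 (r = -0.363) it was Myh2, the heavy chain of oxidative fast fibres, in opposite directions. For Tnni1 it was Romo1 (r = 0.457), for Atp2a2 Itgav (r = 0.391) and for Myl3 Cope (r = 0.334).

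Of 11 other genes known from slow fibres, 6 were lower in males, 4 higher (Pln, Ankrd2, Mb and Smpx) and Csrp3 was not called, beside 30.6% lower and 24.4% higher of all genes. Their median log2 difference was -0.10, beside -0.01 over all genes. The 4 with the largest absolute differences were Sln, the SERCA inhibitor sarcolipin (1.36 CPM in females, 0.725 in males, log2 difference -0.88), Myl6b, a slow essential light chain (-0.67), Myh7 (-0.62) and Myh7b (-0.44). Pln, the SERCA2 inhibitor phospholamban, went the other way, at 8.47 CPM in females and 11.3 CPM in males (log2 difference 0.43 ± 0.14, adjusted p = 0.0044). Myoglobin, Mb, the oxygen store of oxidative fibres, was also higher in males (0.18 ± 0.03). Its r with the members was 0.237, against 0.526 for Myl6b.

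Of 20 regulators of fibre type, 11 were higher in males, 5 lower and 4 not called, beside 24.4% higher and 30.6% lower of all genes. Their median log2 difference was 0.06, beside -0.01 over all genes. The 4 with the largest absolute r with the members were Prox1 (0.567), the nuclear receptors Esrrb (0.397) and Esrrg (0.354), and Vgll2, a cofactor of TEAD factors (0.304). Prox1 was not called between the sexes, Esrrb was lower in males (log2 difference -0.08 ± 0.04, adjusted p = 0.0392), Esrrg was higher (0.19 ± 0.03) and Vgll2 lower (-0.28 ± 0.03). Over the library blocks the r of Prox1 ran from 0.318 to 0.695.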

How the data were processed

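Muscle RNA of 474 mice (235 females, 239 males) was sequenced as read pairs after selection of polyadenylated RNA and addition of a spike-in mix. Per the study's methods, the authors aligned both mates as single reads to a transcriptome of the 8 founder strains and obtained expected counts of genes by EMASE (GBRS package), so the deposited expected counts are unnormalised and count read ends. Of these values 68.6% lay within 1e-06 of a whole number, including the 4.16% at 0. The deposited score is the variance stabilising transform of DESeq2 by the authors, and it ran from 5.24 to 22.9. The methods also name a step that took batch out as a random effect, with sex and generation kept as fixed effects. Whether the deposited score carries this step is not stated. Versions of GBRS, EMASE and DESeq2 behind these files and use of strand are not given in the sources used here. Columns were matched to samples by animal number. In the order of the count columns DO048 and DO308, both among the libraries outside the range of their sex label, stood in each other's place. The cause was not tested. Gene positions equalled those of GENCODE M21 on GRCm38 for all members.

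Rounded expected counts went into edgeR 4.0.16 under R 4.3.3 (TMM, filterByExpr with a minimum count of 10 over the 10 groups, which removed 1789 genes), limma 3.58.1 and DESeq2 1.42.0. Sex was tested with generation as covariate, generation with sex, the interaction with both, library block with both, and sex again with log2 CPM of Myh7 (prior count 2) added. Wave, a covariate of the study, is not in the labels and was not fitted. P-values measure the spread between animals. Ratios and correlations were tested by 100000 permutations, with the VST residuals after sex and generation for correlations. Scipy 1.17.1, pandas 2.3.3, matplotlib 3.10.9 and numpy 2.4.6 under Python 3.11.15 served for these steps, which were tested on simulated data beforehand, as were the fits. Named genes were the 8 members, their 8 fast counterparts, Myh7, the 10 genes with the highest and the 5 with the lowest r with the members' mean z-score, the other gene most alike for each member, the 4 with the largest sex difference of 11 other slow-fibre genes and the 4 with the largest absolute r of 20 regulators. All other genes named, such as Pln, Mb, single marker genes and the genes that followed what each member did beyond the others, fall outside this rule and were chosen after their values were seen. Marker lists were used for fast fibres, heart, smooth muscle, adipocytes, Schwann cells, erythroid cells, macrophages, endothelium and regenerating fibres. Members and lists were chosen with earlier results of these data known. Promoters came from RefSeq on GRCm38.p6, and protein sequences were not used here. Alternatives covered scaling, filter, tool, covariates and subsets of animals.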

Additional observations from a re-analysis of the deposited data

How the results depend on the processing

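The sex difference kept its direction in all 8 members under all 18 alternatives, which were other scalings, no filter, limma, DESeq2, added covariates, the 5 libraries left out, and each generation or block alone. All 8 members passed each of them, apart from Myl3 in block 3. No member was called for generation or interaction, and none for spread, under any alternative run. The count of members called between library blocks was 5, and it was 0 with limma on the deposited score, 3 with the total count alone, and 4 with DESeq2 size factors or without the 5 libraries. The cause was not tested. The median r of the 28 pairs, 0.835, was 0.762 in block 1 and 0.882 in block 3, and in generations taken alone, a step chosen after seeing the data, it was 0.784 in generation 17 and 0.885 in generation 23. The cause was not tested, and these subsets hold fewer animals. At equal Myh7 the count was 4 to 6 of 8. No paired analysis was possible because each animal gave 1 library and the groups share no replicate numbers. Library blocks may not be preparation batches, and the reads behind overlapping genes could not be divided by strand.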

Other observations

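The marker lists of other cells were set against the mean z-score of the 8 slow-fibre genes across animals, after sex and generation were removed. The values are descriptions over all animals, and the lists share libraries. The 2 markers of regenerating fibres had r = 0.236 and the 6 heart markers r = 0.216, in both cases above 0 in each of the 5 library blocks. Single genes differed within these lists. Myh3 had r = 0.392 and Myh8 -0.0042, while of the heart markers Myh6 had 0.362, Tnnt2 0.214, Tnni3 0.0927, Ryr2 -0.0045, Myl4 -0.0136 and Tbx5 -0.0989. Endothelial markers had r = 0.131, erythroid markers 0.0872, smooth muscle markers 0.0167 and Schwann cell markers 0.0059. Adipocyte markers had r = -0.0104, macrophage markers -0.0124 and the 10 fast-fibre markers -0.182. The fast-fibre value ran from -0.457 in block 3 to 0.0164 in block 1, and Myh2 of that list had r = 0.309. Adipocyte, macrophage, smooth muscle and Schwann cell values took both signs over the blocks, and endothelial and erythroid ones were above 0 in all 5. In the comparison of the sexes all 4 endothelial markers were higher in males, as were 3 of 5 smooth muscle markers (1 was lower) and 3 of 5 erythroid markers, beside 24.4% higher and 30.6% lower of all genes. Of the 5 Schwann cell markers 1 was lower in males, and none of the 5 macrophage markers was called by edgeR, also at an unadjusted p under 0.05. Of the 10 fast-fibre markers 5 were higher and 4 lower in males.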
